A study of Mus musculus with 6 samples.

Results

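The cytosolic ribosomal protein genes of mouse primary oligodendrocyte precursor cells (mOPCs) were examined after knockdown (KD) of Qk, the gene of the Qki RNA-binding proteins. Members were taken by symbol alone, as every gene whose name begins with Rpl or Rps and a number, together with Rplp0, Rplp1, Rplp2 and Rpsa, leaving out the Rps6k kinases and pseudogene names. The rule gave 86 of the 23038 genes in the files, of which 46 encode large subunit proteins, 31 encode small subunit proteins, 8 are paralogs of such genes and 1, Rps19bp1, encodes a protein that binds Rps19 and is not part of the ribosome. The 3 siNC libraries came from mOPCs given control siRNA and the 3 siQk libraries from mOPCs given siRNA against Qk, all harvested 72 h after transfection. Per the study's methods the cells were immunopanned from mouse embryos and cultured, and 3 different siRNAs against Qk were used, so that the spread of the siQk libraries can include differences between siRNAs. Which siRNA each library was given is not stated in the sources used here. Every library was made from polyadenylated RNA and holds between 58166490 and 141045937 tags, the authors' estimated counts.

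The cytosolic ribosome consists of a small subunit, which reads the mRNA, and a large subunit, which joins amino acids, and each is built in the nucleolus from ribosomal RNA and a single copy of most ribosomal proteins. The mRNAs of ribosomal proteins are among the most abundant of a growing cell, and many begin with a 5′ terminal oligopyrimidine (TOP) tract through which mTOR signaling controls their translation. Ribosomal protein genes also have very many processed pseudogenes in mammals, so that short reads from them can match several places in the genome.

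The sequences at the starts of a few members are shown first, since many mRNAs of ribosomal proteins begin with a TOP tract. Each line holds 12 bases before and 16 bases from a RefSeq start on GRCm38.p6, written 5′ to 3′ on the strand of the gene, with capitals marking a tract (C at the start followed by at least 4 more C or T). The first 3 hold a tract and the last 3 do not. Rpl35a also has listed starts without a tract, which are not shown.
Rpl35a, chr16:33056470-33056497, plus strand: gggcttgccttcCTCTTTCCgccatctt
Rpl35, chr2:39005116-39005143, minus strand: ccccgccctttcCTCTTTCTCTCgaacc
Rplp2, chr7:141447639-141447666, plus strand: gtcagcgtcttcCTTTCgccgccggacg
Rplp0, chr5:115559455-115559482, plus strand: ttcgggtttcgaggaccgcctggttctc
Rpl22l1, chr3:28805496-28805523, plus strand: cggcgcaagcccgttctcttcccacggc
Rpl5, chr5:107900516-107900543, plus strand: cacgtcgcttgcgtgctggtggtgctac

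A start was listed for 65 members, and 13 of them (20%) had the tract at a listed start, against 2.80% of the 17615 genes of the files with a listed start. No tract at a listed start says only that these letters are not there, since annotated starts can lie some bases from the start used.

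Qk was lower in every siQk library, which checks the labels. Its level was 209, 206 and 163 RPKM (tags scaled by exon length and by the library total) in siNC and 51.3, 76.6 and 36.2 RPKM in siQk, a log2 fold change of −1.98 (SE 0.28, edgeR quasi-likelihood test, Benjamini-Hochberg FDR = 0.00311). The OPC marker list was measured in all libraries with a summed level of 1023 to 1100 RPKM in siNC and 1217 to 1370 RPKM in siQk, with 3 of 8 tested members higher (Cspg4, Olig2 and Olig1) and 1 lower (Lhfpl3, log2 fold change −1.07), and fibroblast and vascular markers were near 0, at 0.148 RPKM or less for each gene. Myelin genes were also high in these cultures, at 4723, 4418 and 2473 RPKM summed in siNC and 1247, 997 and 1640 RPKM in siQk, with 6 of 7 tested members lower. Astrocyte markers summed to 97.1 to 156 RPKM in siNC and 30.7 to 34.0 RPKM in siQk, with 4 of 5 tested members lower. Gfap, Slc1a3 and Slc1a2 held most of this sum (means of 69.1, 25.5 and 17.5 RPKM in siNC). Aqp4 (0.458 RPKM in siNC) was not called, and Gja1 (0.0111 RPKM) was not tested. Neuron markers summed to 135 to 202 RPKM in siNC and 97.5 to 145 RPKM in siQk. Most of this was Tubb3 (mean 123 RPKM in siNC) and Elavl3 (34.3 RPKM). Of 5 tested neuron markers 1, Snap25, was called higher, with means of 0.751 RPKM in siNC and 5.18 RPKM in siQk. Syt1 was positive and not called. Tubb3, Elavl3 and Rbfox3 had log2 fold changes of −0.57, −0.61 and −0.57 and were not called. The only microglia marker tested, P2ry12, was lower, at low levels. It had 0.669, 3.20 and 1.19 RPKM in siNC and 0.152, 0.186 and 0.287 RPKM in siQk. The untested microglia markers had means of 0.116 RPKM or less in each group. The part of these cell types in the values of the ribosomal protein genes was not tested. In bulk RNA, fewer cells of a type and less RNA per cell cannot be told apart.

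Ribosomal protein transcripts made up a larger part of each siQk library than of any siNC library. They took 0.947%, 0.916% and 1.12% of the tags in the 3 siNC libraries and 1.38%, 1.42% and 1.27% in the 3 siQk libraries. The means were 0.994% ± 0.109 (SD, n = 3) and 1.36% ± 0.0787 (SD, n = 3), a ratio of 1.37. The groups did not overlap, and the exact permutation test (two-sided) gave p = 0.1, which is the smallest value that 3 libraries against 3 allow. Counting error was small beside the spread between libraries: the 95% Wilson interval of siNC replicate 1, the smallest library, ran from 0.944% to 0.949%, and it covers counting error only. A share is relative to the library total. With library size as the only scaling in edgeR, the median log2 fold change was 0.41 over the tested members and 0.16 over all tested genes.

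**Figure D1:**
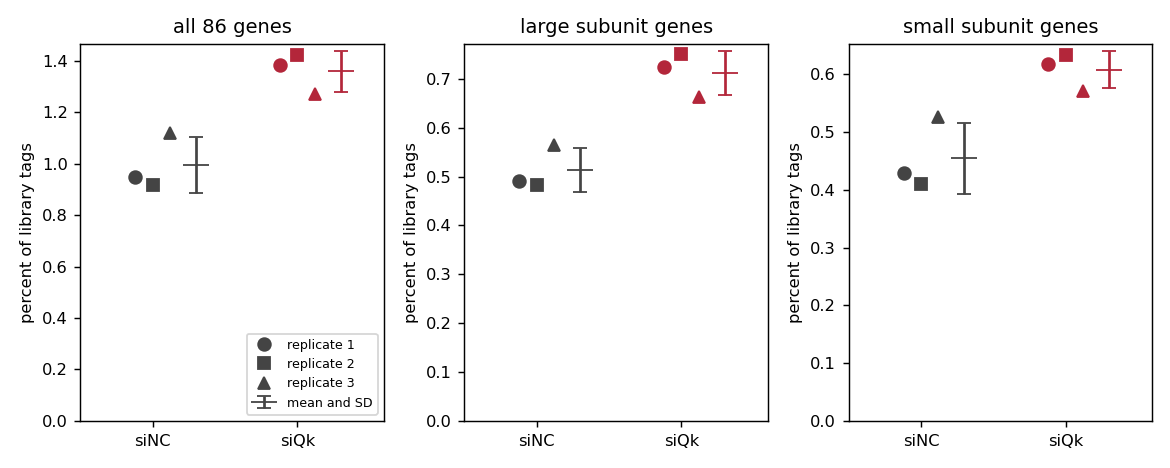
Percent of all tags of a library on the 86 ribosomal protein genes (left), on large subunit genes (middle) and on small subunit genes (right), for 3 siNC and 3 siQk libraries, with marker shapes for the replicates and the mean and SD beside them. In each panel the siQk libraries lie above the siNC libraries, and siNC replicate 3 is the highest of its group.

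The same order held for both subunits. Large subunit genes took 0.513% ± 0.0449 of the tags in siNC and 0.712% ± 0.0450 in siQk, and small subunit genes 0.455% ± 0.0615 and 0.608% ± 0.0322 (SD, n = 3 each), with non-overlapping libraries and an exact permutation p = 0.1 for each. The log2 ratio of small to large subunit tags was −0.19, −0.23 and −0.10 in siNC and −0.23, −0.24 and −0.21 in siQk. These ranges overlapped, and the difference of −0.05 had an exact permutation p = 0.3. Among siNC libraries replicate 3 had the highest share and the lowest myelin gene level, and among siQk libraries replicate 3 had the lowest share and the highest myelin gene level. Whether the myelin genes, which took 1.32%, 1.25% and 0.671% of the tags in siNC and 0.331%, 0.264% and 0.453% in siQk, had a part in the shares of the ribosomal protein genes was not tested.

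The TMM factors, which scale libraries to a common level of most genes, were 0.899 to 0.987 in siNC and 1.04 to 1.07 in siQk, and the gene by gene test used them. Of the 86 members, 81 passed the filter on low counts, and 74 of these had a positive log2 fold change (siQk over siNC), whereas 51.2% of all 12505 tested genes did. The median was 0.27 over the members and 0.01 over all tested genes. The range of the members was narrow, from −0.44 to 0.77, and none reached an absolute log2 fold change of 1. At P below 0.01 and FDR below 0.1, 16 members (19.8%) were called changed, while 31.0% of all tested genes were called in either direction. Of these, 15 were higher (18.5% of the members, background 13.8%) and 1, Rpl5, was lower (background 17.2%). The other 65 tested members did not pass the test. An unadjusted p under 0.05 was reached by 47 members. The counts of every group and list that follows are to be read beside the same background of 13.8% higher and 17.2% lower.

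**Figure D2:**
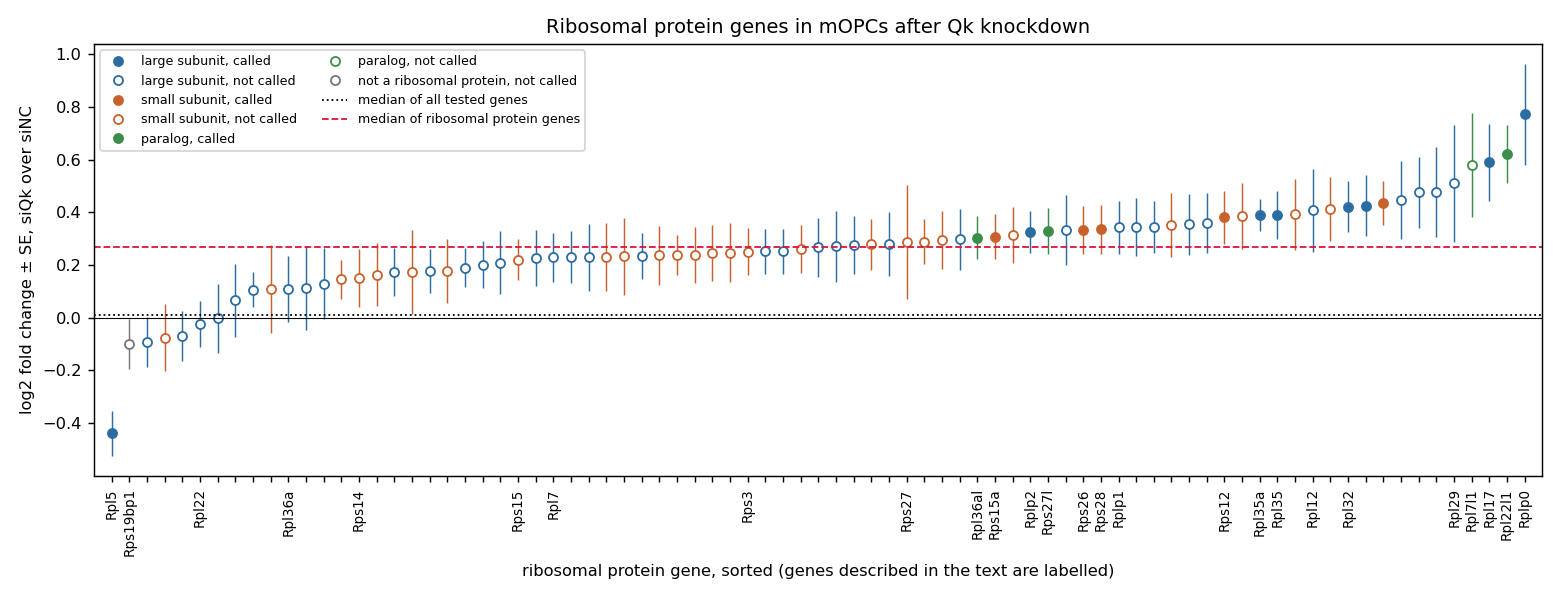
Log2 fold change (siQk over siNC, edgeR) with its SE for the 81 tested members, sorted, in colors for the large subunit, the small subunit, paralogs and Rps19bp1, with filled symbols for called genes and labels for genes described in the text. The members lie around their median of 0.27 (dashed), above the median of 0.01 of all tested genes (dotted), with Rpl5 alone at the lower end.

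On the RPKM scale, 67 members had all 3 siQk libraries above all 3 siNC libraries, against a background of 41.9% of tested genes, and 1 had them all below, against 16.4%. With RPKM divided by the TMM factor the numbers were 51 higher (background 27.8%) and 1 lower (background 26.5%). The order of the libraries was shared by most members. siNC replicate 3 was the highest siNC library for 70 of the 81 members in RPKM and for 59 after scaling, and siQk replicate 3 was the lowest siQk library for 69 and 68 of them. Replicates 3 of the 2 groups therefore lay closest to each other for most members. The count of calls depended on single libraries. Without siNC replicate 3, 34 members were higher and 1 lower, and without siQk replicate 3, 10 were higher and 1 lower. Without siNC replicate 1, 9 were higher and 1 lower, without siNC replicate 2, 5 were higher and 1 lower, and without siQk replicate 1 or 2, 4 were higher and 1 lower in each case.

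The P-stalk is the flexible arm of the large subunit that recruits the translation factors that hydrolyze GTP. Of the 4 genes listed for it, 2 were higher, and the median log2 fold change was 0.38. The largest change among the members was that of Rplp0, the base protein of the stalk. Rplp0 had 418, 395 and 266 RPKM in siNC and 704, 724 and 632 RPKM in siQk. All siQk libraries lay well above all siNC libraries, and siNC replicate 3, highest for most members, was here the lowest. The log2 fold change was 0.77 (SE 0.19, edgeR FDR = 0.0215), from 0.58 without siNC replicate 3 to 0.94 without siNC replicate 1, and the call was lost in 4 of the 6 fits that left out a library (siNC replicate 2 or any of the siQk replicates). Rplp2, which forms the dimers of the stalk, had 688, 669 and 798 RPKM in siNC and 1002, 1056 and 938 RPKM in siQk (log2 fold change 0.33, SE 0.08, edgeR FDR = 0.0211). Its partner Rplp1 had 792, 676 and 865 RPKM in siNC and 1096, 1140 and 1053 RPKM in siQk. The log2 fold change of Rplp1 was 0.34 (SE 0.10, edgeR FDR = 0.0365) and it was not called, since P lay just above the cutoff of 0.01, although its libraries did not overlap. Rpl12, which sits at the foot of the stalk, had a level of 8.68 ± 0.999 RPKM in siNC and 12.8 ± 2.12 RPKM in siQk (SD, n = 3), and with a log2 fold change of 0.41 (SE 0.16) it was not called.

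**Figure D3:**
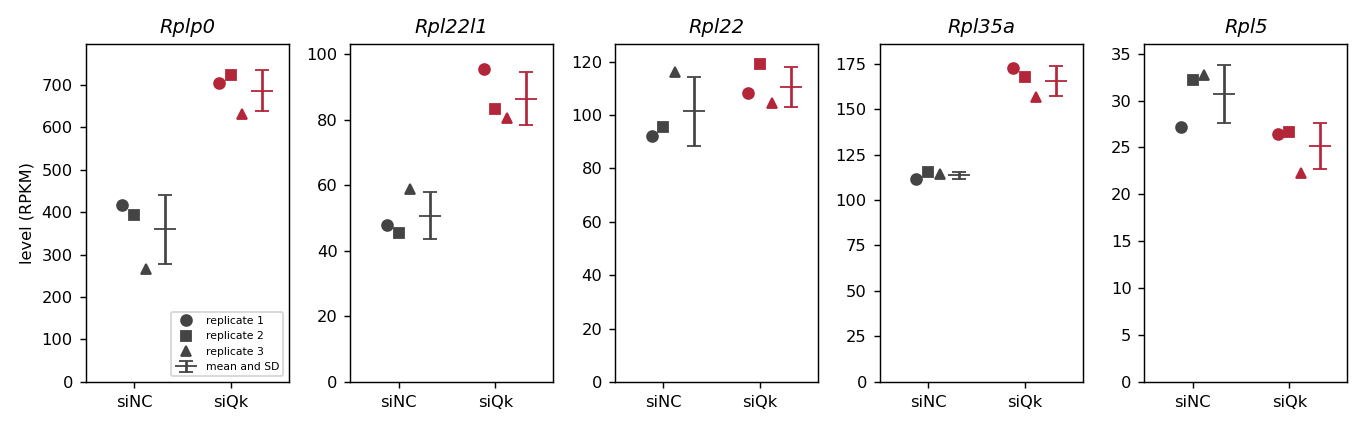
Level in RPKM of 5 genes in each of 3 siNC and 3 siQk libraries, with marker shapes for the replicates and the mean and SD beside them, on axes that start at 0. The libraries are apart for Rplp0, Rpl22l1 and Rpl35a, with siQk higher, and for Rpl5, with siQk lower, and they overlap for Rpl22.

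Rpl5 was the only member called lower. Together with Rpl11 and 5S ribosomal RNA, Rpl5 forms the 5S particle of the large subunit, which can also bind Mdm2 when ribosome assembly fails. Its level was 27.2, 32.2 and 32.7 RPKM in siNC and 26.5, 26.6 and 22.3 RPKM in siQk. The gap between the groups was small, with siNC replicate 1 just above siQk replicates 1 and 2. The log2 fold change was −0.44 (SE 0.09, edgeR FDR = 0.00962), it was called in each fit that left out a library, and it was −0.29 and not called with library size as the only scaling. The gene (Entrez 100503670, chromosome 5, 107900502 to 107909005, plus strand, 8 exons, 297 codons) shares 92.5% of the 75-base stretches of its reference transcript with transcripts of 7 other genes, of which 6 are pseudogenes, so that the split of its reads is uncertain. Rpl11 could not be compared: the counted exons come to 24 bases, while its reference transcript has 833, and its 30.8, 18.8 and 25.9 RPKM in siNC and 28.7, 31.7 and 28.7 RPKM in siQk rest on few tags (43 in siNC replicate 1), below the filter.

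Elsewhere in the large subunit, 7 of 45 tested core genes, Rplp0 and Rplp2 included, were higher (15.6%) and 1 was lower, near the 13.8% of all tested genes called higher, with a median log2 fold change of 0.27. Rpl35a, a protein required for maturation of large subunit RNA, had closely spaced siNC values, at 112, 115 and 114 RPKM in siNC and 172, 168 and 156 RPKM in siQk. The siNC libraries hardly differed, and each siQk library lay well above them. Its log2 fold change was 0.39 (SE 0.06, edgeR FDR = 0.00459), called in each of 14 alternative fits. Rpl32 was among the members with the highest RPKM. It measured 694 ± 84.3 RPKM in siNC and 1030.2 ± 98.0 RPKM in siQk (SD, n = 3), which gave a log2 fold change of 0.42 (SE 0.10, edgeR FDR = 0.0167).

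Among 9 proteins that line the rim of the exit tunnel, through which the new polypeptide leaves, 2 were higher and none lower, with a median of 0.27. Rpl17 rose from 2.85 ± 0.334 to 4.77 ± 0.527 RPKM (SD, n = 3, log2 fold change 0.59, SE 0.15, edgeR FDR = 0.0209), at a low level for such a gene. Rpl35 rose from 169 ± 19.8 to 245 ± 15.6 RPKM (SD, n = 3, log2 fold change 0.39, SE 0.09, edgeR FDR = 0.0177). Of the 75-base stretches of their reference transcripts, Rpl17 shares 43.6% and Rpl35 89.2% with transcripts of other genes. The split of their reads is thus uncertain. Both calls were lost without siQk replicate 1 and without siQk replicate 2, and that of Rpl17 also without siNC replicate 1, without siNC replicate 2 and with the replicate number as a block.

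In the small subunit, 5 of 31 tested genes (16.1%) were higher and none lower, near the 13.8% of all tested genes called higher, with a median log2 fold change of 0.25. Rps12, a protein of the small subunit head, measured 3.68 ± 0.395 and 5.31 ± 0.245 RPKM (SD, n = 3, log2 fold change 0.38, SE 0.10, edgeR FDR = 0.0248). It shares 82.5% of its 75-base stretches with transcripts of 24 other genes, so that the split of its reads is uncertain. Of 6 proteins along the path of the mRNA, Rps26 and Rps28, both near its exit, were higher, with log2 fold changes of 0.33 and 0.34 (SE 0.09 each, edgeR FDR = 0.0278 and 0.0293), and the other 4 did not pass the test, with a median of 0.24 over the 6. Rps15a was also higher, at 0.31 (SE 0.08, edgeR FDR = 0.0296), which was named here after its value was seen.

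Rps15 and Rps14 had the highest mean siNC RPKM of the small subunit genes, and neither was called. By tags, which are not scaled by exon length, Rps9 and Rps3 were above both. Rps15, which lies close to the decoding site, had 621, 609 and 733 RPKM in siNC and 864, 864 and 808 RPKM in siQk (log2 fold change 0.22, SE 0.08). Rps14 had 576, 521 and 717 RPKM in siNC and 755, 766 and 713 RPKM in siQk (log2 fold change 0.15, SE 0.11). The libraries of Rps15 were apart, and those of Rps14 overlapped through the replicates 3. The 10 members with the most tags held 45.0% to 47.7% of all tags of the members in the 6 libraries.

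Of the 19 genes on a list of Diamond-Blackfan anaemia genes, whose mutation in humans causes a failure of red cell production, 18 were tested, 5 were higher and 1 was lower. The 5 include Rpl35, Rpl35a and Rps28 and the 1 is Rpl5. The median over the 18 was 0.29.

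Of the 8 paralogs of core genes 4 were tested and 3 were higher. The median over the 4 was 0.46 on the log2 scale. Rpl22l1, the paralog of the tunnel protein Rpl22 (Entrez 68028, chromosome 3, 28805436 to 28807424, plus strand, 4 exons, 122 codons), had 47.9, 45.3 and 58.9 RPKM in siNC and 95.7, 83.4 and 80.5 RPKM in siQk. The groups were far apart, with a log2 fold change of 0.62 (SE 0.11, edgeR FDR = 0.0071) that was called in each of 14 alternative fits and lay between 0.54 and 0.77. Rpl22 itself (Entrez 19934, chromosome 4) had 92.1, 95.6 and 116 RPKM in siNC and 108, 119 and 104 RPKM in siQk. Its libraries overlapped, and the log2 fold change was −0.02 (SE 0.09, edgeR FDR = 0.848). Rpl22l1 shares 58.6% of the 75-base stretches of its reference transcript with transcripts of 3 other genes, and Rpl22 shares 1.42%. The split of the reads of Rpl22l1 is thus uncertain, also in its ratio to Rpl22.

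Within a library, a ratio of 2 genes is free of the scaling between libraries. The log2 ratio of Rpl22l1 to Rpl22 in RPKM was −0.94, −1.08 and −0.98 in siNC and −0.18, −0.51 and −0.38 in siQk. Thus Rpl22l1 was about equally below Rpl22 in the 3 siNC libraries and came closer to it in each siQk library, and the difference of 0.64 had an exact permutation p = 0.1, the smallest possible, and 0.267 after adjustment over 4 pairs. Leaving out a library gave 0.56 to 0.72. For Rpl7l1 over Rpl7 the difference was 0.39 (exact permutation p = 0.2, adjusted 0.267), and for Rpl36al over Rpl36a it was 0.20 (exact permutation p = 0.2, adjusted 0.267), with overlapping libraries in both pairs. For Rps27l over Rps27 it was 0.03 (exact permutation p = 0.9, adjusted 0.9), a value that changed sign without siNC replicate 1, siNC replicate 3 or siQk replicate 3.

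The other paralogs differed in level. Rps27l, a paralog of Rps27 that p53 induces, had 203, 184 and 216 RPKM in siNC and 301, 281 and 259 RPKM in siQk (log2 fold change 0.33, SE 0.09, edgeR FDR = 0.0259). Rpl36al rose from 78.5 ± 8.79 to 108 ± 2.81 RPKM (SD, n = 3, log2 fold change 0.30, SE 0.08, edgeR FDR = 0.0267). Rpl7l1, a paralog of Rpl7, had 30.3, 18.1 and 29.3 RPKM in siNC and 43.6, 44.3 and 41.6 RPKM in siQk, so that siNC replicate 2 was far below its group. The log2 fold change of 0.58 had an SE of 0.20, and Rpl7l1 was not called. Without siNC replicate 2 the log2 fold change was 0.37, and without siNC replicate 1 it was 0.75. Rpl7l1 was called in both of these fits, and in 4 of the 14 alternatives. Rpl10l and Rpl39l, known from the testis, were listed at 0 in every library. Rpl3l, known from heart and skeletal muscle, did not exceed 0.0396 RPKM and Rps4y2 did not exceed 0.0548 RPKM. Rps19bp1 had overlapping libraries and a log2 fold change of −0.10 (SE 0.09).

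The levels of core members spread over a wide range in siNC. Their mean siNC level ran from 1.34 RPKM for Rpl29 to 778 RPKM for Rplp1, a ratio of 579, with a median of 54.8 RPKM over 77 core genes. Rpl29, whose transcript shares sequence with 45 other genes, had 0.944, 1.41 and 1.67 RPKM in siNC and 1.93, 2.09 and 2.38 RPKM in siQk, and had one of the widest spreads of the siNC group. The 27 core genes under 20 RPKM shared a median of 67.5% of their 75-base stretches with transcripts of other genes, and the 50 core genes at 20 RPKM or more shared 35.0%. The numbers of other genes were 9 and 4 (medians). Across the 77 genes, Spearman's rho between the share and the siNC level was −0.55, given as a description since these genes share libraries. Rps3, named here after its value was seen, shares no such stretch and had a mean siNC level of 141 RPKM, while Rps27 shares 98.5% and had 3.18 RPKM. The counted exon length, by which RPKM is scaled, was under 0.5 of the reference transcript for 8 core genes and over 2 times it for 2. Rpl12 (0.287) and Rps12 (3.15) are among these. Levels of different members are thus not comparable without knowing how the authors treated reads that match several places and which exons they counted. The cause of the spread was not tested.

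**Figure D4:**
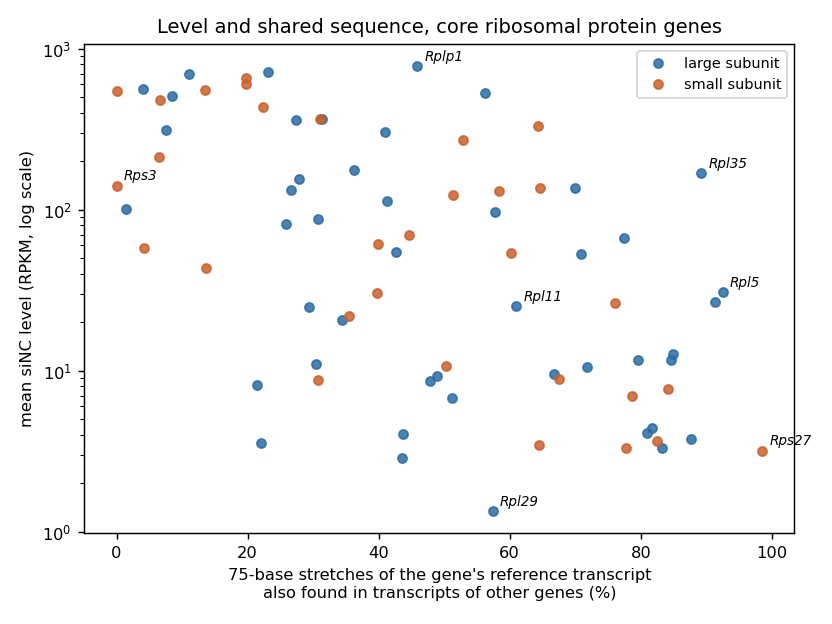
Mean siNC level in RPKM (log axis) against the percent of 75-base stretches of the GENCODE M21 reference transcript that also occur in transcripts of other genes, for 77 core ribosomal protein genes, blue for the large and orange for the small subunit. Genes under 20 RPKM lie mostly to the right, with Rps27 at 98.5% and 3.18 RPKM, and Rps3 at 0% and 141 RPKM.

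The difference between siQk and siNC was then set beside the shared sequence. Among the 17 tested members with under 20% of shared stretches, 15 were positive and 3 called, and the median log2 fold change was 0.25. Among the 64 with 20% or more, 59 were positive and 13 called, and the median was 0.28. Spearman's rho between the share and the log2 fold change was −0.03 over 76 core genes, again as a description. The split at 20% was chosen after the data had been seen.

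Members with and without a TOP tract at a listed start were set side by side, with no test. Annotated starts can lie some bases from the start used, so members without a tract here can still have it. The median log2 fold change was 0.29 over the 13 tested members with a tract, 4 of them called (Rpl35, Rpl35a, Rplp2 and Rps15a), and 0.25 over the 48 tested members without one, 8 of them called. The largest changes, of Rplp0 and Rpl22l1, were of genes with no tract at the listed start, and Rpl5 had none either.

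The Qki proteins bind the RNA motif ACUAAY, which was searched as ACTAAC and ACTAAT on the sense strand of the reference transcript of each gene. The sites of Rplp0, Rpl35a and Rpl5 and of the pair Rpl22l1 and Rpl22 are shown, as members described in detail above, in 26 bases of transcript, 5′ to 3′, with the motif in capitals, from GENCODE M21.
Rpl22l1, coding sequence, transcript position 464: gagtctgaggACTAATtggcctctgc
Rpl22, 3′UTR, transcript position 879: agttgtgtgtACTAACcttcttcctt
Rplp0, coding sequence, transcript position 1071: ggtctcttcgACTAATcccgccaaag
Rpl35a, 3′UTR, transcript position 466: ccggatttaaACTAATggagagtaaa
Rpl5, coding sequence, transcript position 308: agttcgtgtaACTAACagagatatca

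Of 85 members with a reference transcript, 17 held the motif, with 22 sites of which 11 lay in coding sequence, 9 in the 3′UTR and 2 in the 5′UTR. The motif was found in 42.9% of all 18560 genes of the files with a reference transcript, but these are longer, with a median of 2714 bases against 886 for the members. Per kilobase of transcript the members held 0.245 motifs and all genes 0.234. The 17 members with a motif had a median log2 fold change of 0.27 and the 64 without one 0.26. A match is a sequence description and no evidence of binding.

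Of 3 ribosomal protein genes that the symbol rule does not reach, 1 was higher. Gnb2l1 (Rack1, a signaling scaffold on the small subunit) had 380, 381 and 498 RPKM in siNC and 642, 673 and 570 RPKM in siQk (log2 fold change 0.43, SE 0.11, edgeR FDR = 0.0226). Fau, whose product is a ubiquitin-like fusion of a ribosomal protein, had a log2 fold change of 0.13 (SE 0.11) and was not called. Over 20 other TOP mRNAs the median was 0.21, with 4 (20%) higher and 1 lower, beside 13.8% and 17.2% of all tested genes. Pabpc1, the poly(A)-binding protein, rose by 0.51 and Hnrnpa1 by 0.52 on the log2 scale (SE 0.08 and 0.10, edgeR FDR = 0.00525 and 0.00905), while Vim, an intermediate filament gene, fell by 0.82 (SE 0.18, edgeR FDR = 0.0138). The call of Gnb2l1 was lost without siNC replicate 1, siNC replicate 2, siQk replicate 1 or siQk replicate 2, and that of Vim without siQk replicate 3. Of the 20 other TOP mRNAs 10 were called without siNC replicate 3 and 3 without siNC replicate 2.

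Genes of the machinery that builds ribosomes were mostly higher where they were called. Of 35 ribosome biogenesis genes, 18 (51.4%) were higher and 1 was lower, beside 13.8% and 17.2% of all tested genes, with a median of 0.27. Dkc1, the pseudouridine synthase of box H/ACA particles, had 11.5, 13.1 and 14.5 RPKM in siNC and 26.3, 27.4 and 22.1 RPKM in siQk (log2 fold change 0.81, SE 0.10, edgeR FDR = 0.00195). Nop56, of box C/D particles, rose by 0.59 (SE 0.08, edgeR FDR = 0.00236) and Rrs1, which helps to place the 5S particle, by 0.62 (SE 0.12, edgeR FDR = 0.0092). The exception was Sbds, the factor that helps to release Eif6 from the new large subunit, with 84.8, 78.5 and 61.4 RPKM in siNC and 24.4, 28.5 and 27.1 RPKM in siQk. Sbds was far lower in each siQk library, at a log2 fold change of −1.65 (SE 0.15, edgeR FDR = 0.000939), and kept its call in each alternative fit. The biogenesis genes took 0.319% ± 0.0243 of the tags in siNC and 0.428% ± 0.0257 in siQk (SD, n = 3), a ratio of 1.34 (exact permutation p = 0.1). The number of biogenesis genes called depended on single libraries: it was 9 without siQk replicate 1, 9 without siQk replicate 2 and 11 without siNC replicate 2.

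Of 14 genes of RNA polymerase I and its factors, which transcribe ribosomal RNA, 6 (42.9%) were higher and none lower, beside 13.8% and 17.2% of all tested genes, with a median of 0.28. Polr1b, the second largest subunit, rose by 0.59 (SE 0.13, edgeR FDR = 0.0126), Taf1d by 0.59 (SE 0.09, edgeR FDR = 0.00477), Polr1e by 0.47 (SE 0.09, edgeR FDR = 0.0104) and Taf1c by 0.38 (SE 0.08, edgeR FDR = 0.0145). Of 8 chaperones that carry single ribosomal proteins, Grwd1 (0.52, SE 0.11, edgeR FDR = 0.0112) and Pdcd2 (0.35, SE 0.07, edgeR FDR = 0.012) were higher, with a median of −0.03 over the 8. The call of Taf1c was lost without siNC replicate 1, siQk replicate 1 or siQk replicate 2, and that of Pdcd2 without siQk replicate 1.

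Among 20 regulators of ribosomal protein and TOP mRNAs the median was 0.01, with 3 (15%) higher and 1 lower, beside 13.8% and 17.2% of all tested genes. Myc, a transcription factor that drives ribosome production, had 16.3, 13.6 and 19.1 RPKM in siNC and 34.6, 40.1 and 25.9 RPKM in siQk. All siQk libraries were higher, with replicate 3 the lowest of them, and the log2 fold change was 0.88 (SE 0.18, edgeR FDR = 0.0108). Rheb, the activator of mTOR complex 1, fell by 0.38 (SE 0.05, edgeR FDR = 0.00308), whereas Tsc2, its inhibitor, rose by 0.25 (SE 0.07, edgeR FDR = 0.0297) and Eif4ebp2, a repressor of cap-dependent translation, by 0.35 (SE 0.10, edgeR FDR = 0.0281). Among 10 genes of the p53 response, which free Rpl5 and Rpl11 can set off, 2 were higher (Mdm4 0.43, Zmat3 0.34) and 2 lower (Ccng1 −0.75, Cdkn1a −0.51), with a median of 0.07. The calls of Eif4ebp2, Tsc2 and Cdkn1a were each lost in at least 4 of the 6 fits that left out a library, Tsc2 keeping it only without siNC replicate 2, Eif4ebp2 without siNC replicate 3 or siQk replicate 1, and Cdkn1a without siNC replicate 1 or siQk replicate 1.

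The size of the shared shift was steadier over settings than the number of calls. Over the main fit and 14 alternatives the median of the members was 0.20 to 0.41, while their median minus that of all tested genes was 0.19 to 0.33. With library size as the only scaling, 42 members were higher and none lower, but the median of all tested genes was then 0.16. In that fit the share of all calls that were higher was 68.6%, with upper quartile factors it was 55.6%, and in the main fit it was 44.6%. Rpl22l1 and Rpl35a were called in each of the 14 alternative fits, and 13 of the 16 called members lost the call in at least 1. Rps12, Rps26 and Rpl36al kept theirs in 1 of the 6 fits that left out a library, the one without siNC replicate 3, and Rps15a also in 1 of 6. Rpl32 and Rplp2 lost theirs without siNC replicate 1 or 2 or siQk replicate 1 or 2. Rps27l lost its call without siNC replicate 2 or 3 or siQk replicate 1 or 2, and Rps28 without siNC replicate 2 or 3 or siQk replicate 2 or 3.

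**Figure D5:**
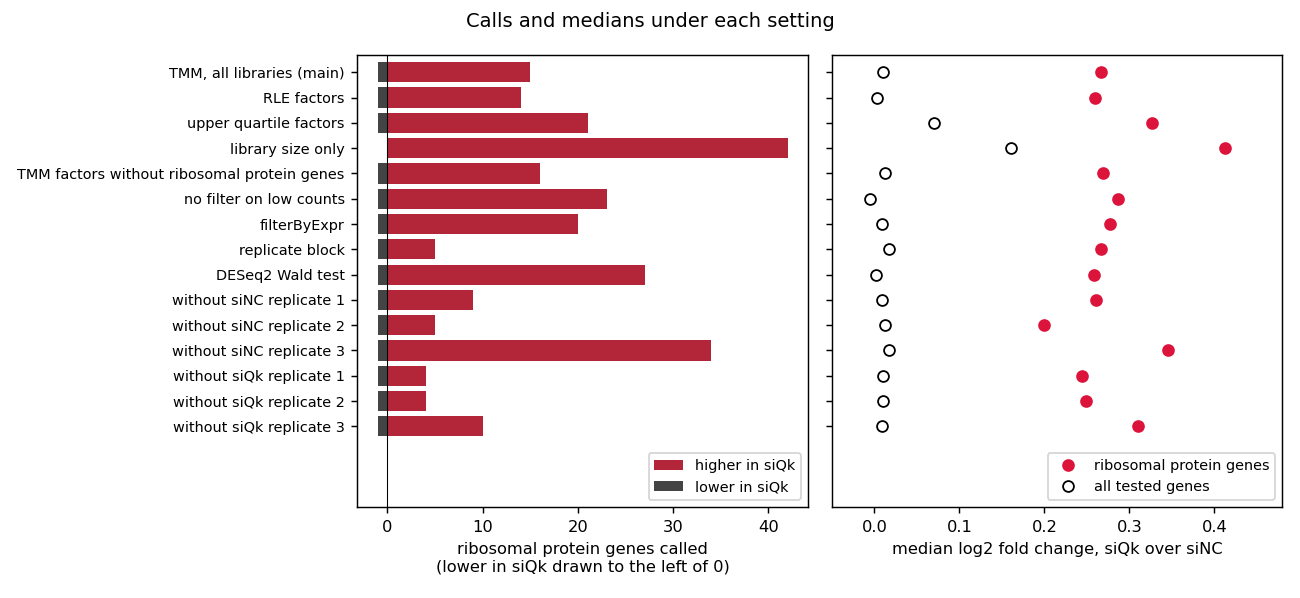
Left, number of ribosomal protein genes called higher (red) and lower (grey, drawn to the left of 0) in siQk under the main fit and 14 alternatives. Right, median log2 fold change of the ribosomal protein genes (filled) and of all tested genes (open), where the members lie above all genes by 0.19 to 0.33 in every fit while calls range from 4 to 42 higher.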

How the data were processed

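Total RNA of 6 mOPC cultures was made into poly(A)-selected libraries. The authors used OLego for alignment to mm10 and Quantas for gene quantification. For each gene the authors deposited the tag number, an estimated count with no normalization, next to exon length and RPKM. Tool versions, strand use and the handling of reads that match several places are not given in the sources used here. How the fractional tags arise is likewise not given.

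The members and lists were chosen with earlier results of these data known. Tag numbers were rounded and tested in edgeR 4.0.16 (R 4.3.3, with limma 3.58.1) by quasi-likelihood, with TMM factors and the group as the only term, on the 12505 genes with average logCPM over 0. Changed means P below 0.01 and Benjamini-Hochberg FDR below 0.1 over these genes, as in the study's methods. Scaled RPKM is RPKM divided by the TMM factor. Single values were compared by exact two-sided permutation. No 2 libraries of a group agreed within sampling noise (chi-square per degree of freedom of 38.0 or more), and each counted as 1 replicate. The study's methods call them independent replicates of cultured cells. The ribosomal RNA gene Rn45s took 3.11% of tags in siNC replicate 1 and 0.169% to 0.389% elsewhere.

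Genes named were Qk, the 12 called members with the largest changes in each direction, the 5 highest and 5 lowest in siNC, the 3 with the widest siNC spread, every paralog, Rps19bp1, the P-stalk and 5S members, and up to 4 called genes of each list. Rpl7, Rpl22, Rpl36a, Rps27, Rps3, Rps15a and Fau fall outside this rule and were named after their values were seen. A few named by it are not reported here. Reference transcripts came from GENCODE M21 (GRCm38, the assembly of mm10) and starts from RefSeq (GRCm38.p6). Alternatives were other scaling factors and filters, DESeq2 1.42.0, a block for the replicate number, leaving out each library, and FDR below 0.05 with a log2 fold change of 1 or more in size.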

Additional observations from a re-analysis of the deposited data

How the results depend on the processing

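The number of ribosomal protein genes called depended on the setting, and the cause was not tested. Against 16 in all and 15 higher, library size as the only scaling gave 42 in all and 42 higher, no filter on low counts gave 23 higher, DESeq2 gave 28 and 27, and leaving out a library gave 5 to 35 in all and 4 to 34 higher. At FDR below 0.05 with a log2 fold change of 1 or more in size, edgeR called 0 members (47 had an unadjusted p under 0.05, and DESeq2 also called 0), 946 genes in all and 2 in the pathway lists. Against 3879 of all tested genes, leaving out a library gave 2478 to 3704. Against 39 genes called in the pathway lists, library size alone gave 62 and leaving out a library 24 to 44. Rps19bp1 turned from −0.10 to 0.048 with library size alone, and the Rps27l to Rps27 ratio ran from −0.032 to 0.14 when a library was left out, negative without siNC replicate 1, siNC replicate 3 (−0.014) or siQk replicate 3 (−0.015).

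Same-numbered libraries had correlations of their deviations of −0.05, −0.15 and −0.34. Deviations within siQk can include differences between siRNAs, so these values cannot show whether the libraries were paired. With the replicate number as a block, 6 members were called, 5 of them higher, and 22 genes in the pathway lists.

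Of the alternatives for the single genes named, 694 kept direction and call, 106 lost the call, 11 gained one and 1 turned.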
